A study of Homo sapiens with 6 samples.

Results

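Translation initiation factors were the 50 protein-coding human genes whose symbols begin with EIF1, EIF2B, EIF2S, EIF3, EIF4, EIF5 or EIF6, out of 57905 genes counted in each library. The kinases of eIF2 (EIF2AK genes) were left to a separate list. The rule used the symbols in the annotation alone. Of the 50 genes, 48 passed edgeR's filter on low counts and were tested, and 46 of these had a mean of at least 100 normalized counts. EIF4E1B and EIF1AY did not pass.

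The RNA came from H929 (NCI-H929), an established human multiple myeloma cell line, grown without any treatment of the cells. In the IRE1-treated samples (n = 3), 2 μg of recombinant human ERN1/IRE1a (amino acids 467 to 977), the stress sensor of the endoplasmic reticulum that cuts RNA, acted on 5 μg of total RNA at 37 °C for 1 h, and in the controls (n = 3) the same reaction ran without the enzyme. All reactions were stopped at 95 °C for 5 min, poly(A)-containing mRNA was purified and each sample gave 1 library. The assay used naked RNA in a tube, so no cell could respond to the enzyme, and the question was which mRNAs lost reads after exposure to it. The design text calls the samples biological replicates, all of a single cell line.

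Initiation factors bring the ribosome to the start codon of an mRNA. eIF2 carries the initiator tRNA and is recharged by its exchange factor eIF2B, while eIF4F, made of the cap-binding eIF4E, the helicase eIF4A and the scaffold eIF4G, prepares the 5′ end of the mRNA. The large complex eIF3 holds these factors on the small ribosomal subunit, eIF1, eIF1A and eIF5 govern start codon recognition, and eIF5B joins the large subunit. The subunits of each complex are encoded by separate mRNAs of very different length, and myeloma cells, which secrete large amounts of immunoglobulin, depend on a high rate of translation.

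Counts on genes ranged from 19615715 to 25678499 per library. Normalized counts are counts divided by the library size and by a TMM factor (0.947 to 0.996 in the IRE1-treated samples, 1.02 to 1.03 in the controls), at the scale of the mean library. The libraries held RNA of plasma cells, with SDC1 at 23598 to 25705 and IRF4 at 25538 to 27945 normalized counts, while MS4A1, CD3D and CD14 of other blood cells stayed at or below 3.17. The T cell gene CD3E was present at 899 to 1179. Among the known IRE1 substrates, BLOC1S1 fell from 614 ± 34.0 (SD, n = 3) in the controls to 239 ± 33.0 (SD, n = 3) normalized counts in the IRE1-treated samples, and XBP1 did not pass the threshold over the whole gene (log2 fold change -0.09, adjusted p = 0.143 by edgeR's quasi-likelihood test), though it did with library size only (-0.17, adjusted p = 0.00371) and when the trend with length and GC was removed, by longest (-0.19, 0.00229) or canonical transcript (-0.20, 0.000899). Every library differed from every other by more than sampling noise, with the chi-square per gene at 2.2 to 3.05 between controls and 3.4 to 11.1 between IRE1-treated samples. IRE1-treated replicate 1 lay farthest from the controls. A level here is a count over the whole gene, relative to the other mRNAs of its library. In the paper's design, a cut mRNA loses its 5′ part when poly(A) mRNA is purified and keeps its 3′ part. For XBP1 the paper showed fewer reads in exons 5′ of the cut sites and similar reads in 3′ exons. A gene count adds the parts, so it does not give the number of cut or intact mRNAs. No mRNA was made in the tube, so a higher level is a larger share of the library and not newly made mRNA. In the annotation 11 of the 50 initiation factor genes overlap exons of another gene on their own strand and 23 on the opposite strand, and 22 have named pseudogenes.

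After incubation with IRE1, whole-gene counts of all 3 EIF4G scaffold genes and of EIF3A, which encodes the largest eIF3 subunit, were lower. Those of 20 other initiation factor genes were higher. The decreases ran from a log2 fold change of -0.39 (EIF4G3) to -0.18 (EIF4G1), and the increases from 0.15 (EIF2B1) to 0.32 (EIF2B3 and EIF3K), so the IRE1-treated samples held between 76.3 and 125% of the control mean for these 24 genes. The other 24 tested genes did not pass an adjusted p of 0.05 (quasi-likelihood test of edgeR, Benjamini-Hochberg adjustment over all 14398 tested genes). Either direction was called for 24 of the 48 genes, against 22.7% of all tested genes. The share of the 48 genes called higher was 41.7%, against 10.3% of all tested genes, and the share called lower was 8.33%, against 12.4%. The median log2 fold change of the 48 genes was 0.13, with 12 of the 48 genes below 0, against a median of 0.00 and 49.2% below 0 for all tested genes. All 3 IRE1-treated samples lay above all 3 controls for 25 of the genes (19.1% of all tested genes) and below them for 6 (20.0% of all tested genes). With library size alone in place of TMM, 5 initiation factor genes were called lower and 10 higher, and the calls over all genes turned from 1781 lower and 1489 higher to 2594 lower and 684 higher. That scaling shifted the median of all genes to -0.07, and none of the 24 called genes changed direction under it.

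**Figure D1:**
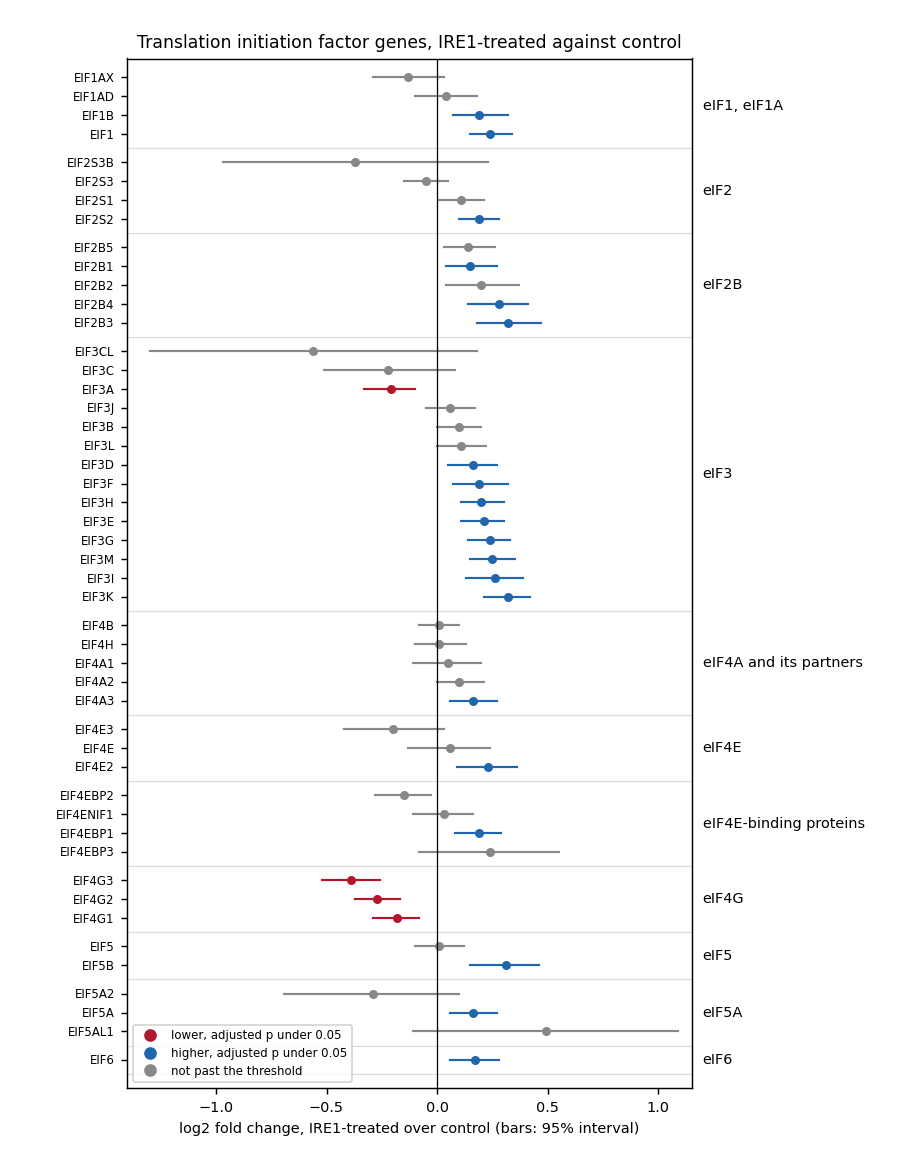
Fitted log2 fold change (IRE1-treated over control, horizontal axis) of each of the 48 tested initiation factor genes, grouped by complex, with bars for the 95% interval. The 3 EIF4G genes and EIF3A are the 4 genes called lower, all 5 eIF2B genes lie above 0, and the widest bars belong to genes with few counts or unequal replicates such as EIF3CL and EIF5AL1.

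The eIF4G proteins are the scaffolds that link the cap-binding protein, the helicase and eIF3. EIF4G1 (ENSG00000114867, chromosome 3, 184032283 to 184053146, plus strand, GRCh37), the main eIF4G of most cells, had 11154, 10844 and 10919 normalized counts in control replicates 1 to 3 and 9001, 9832 and 10165 in IRE1-treated replicates 1 to 3. EIF4G2 (chromosome 11, 10818597 to 10830487, minus strand), an eIF4G relative that does not bind eIF4E, had 15702, 15927 and 15458 in the controls and 12636, 12844 and 13612 after IRE1. EIF4G3 (chromosome 1, 21132785 to 21503778, minus strand), a close relative of EIF4G1, had 2151, 2037 and 1869 in the controls and 1460, 1516 and 1645 after IRE1. For all 3 genes each IRE1-treated sample was below each control, and IRE1-treated replicate 1 was the lowest sample.

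EIF4G3 fell most, to 76.3% of the control mean, with a log2 fold change of -0.39 (standard error of the fit, SE, 0.0617, adjusted p = 0.000563, edgeR). EIF4G2 fell to 83.0%, with a log2 fold change of -0.27 (SE 0.0457, adjusted p = 0.000912). EIF4G1 fell to 88.1%, with a log2 fold change of -0.18 (SE 0.0503, adjusted p = 0.0164). EIF4G2 and EIF4G3 passed the threshold with any 1 library left out. EIF4G1 did not pass without control replicate 1 (adjusted p = 0.0859, edgeR), control replicate 2 (0.0672) or control replicate 3 (0.0564). The summed counts of the 3 genes went from 28687 ± 394 (SD, n = 3) to 24238 ± 1163 (SD, n = 3). Within that sum EIF4G3 took 7.41, 7.07 and 6.62% in the controls and 6.32, 6.27 and 6.47% after IRE1, ranges that did not overlap. The share of EIF4G1 was 38.5, 37.6 and 38.7% in the controls and higher after IRE1, at 39.0, 40.6 and 40.0%, also without overlap. The share of EIF4G2 overlapped, at 54.1, 55.3 and 54.7% in the controls and 54.7, 53.1 and 53.5% after IRE1.

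Per kilobase of canonical transcript, EIF4G2 was the most abundant of the 3 in the controls, at 4137 normalized counts per kb, followed by EIF4G1 at 2030 and EIF4G3 at 316. The canonical transcripts are 3794, 5405 and 6397 bases long, and the longest annotated ones 6769, 5667 and 7832 bases. EIF4G2 and EIF4G3 share same-strand exons with a further gene, the small nucleolar RNA SNORD97 and AL031005.1 respectively, and the overlap setting of the counting is not given in the sources used here.

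**Figure D2:**
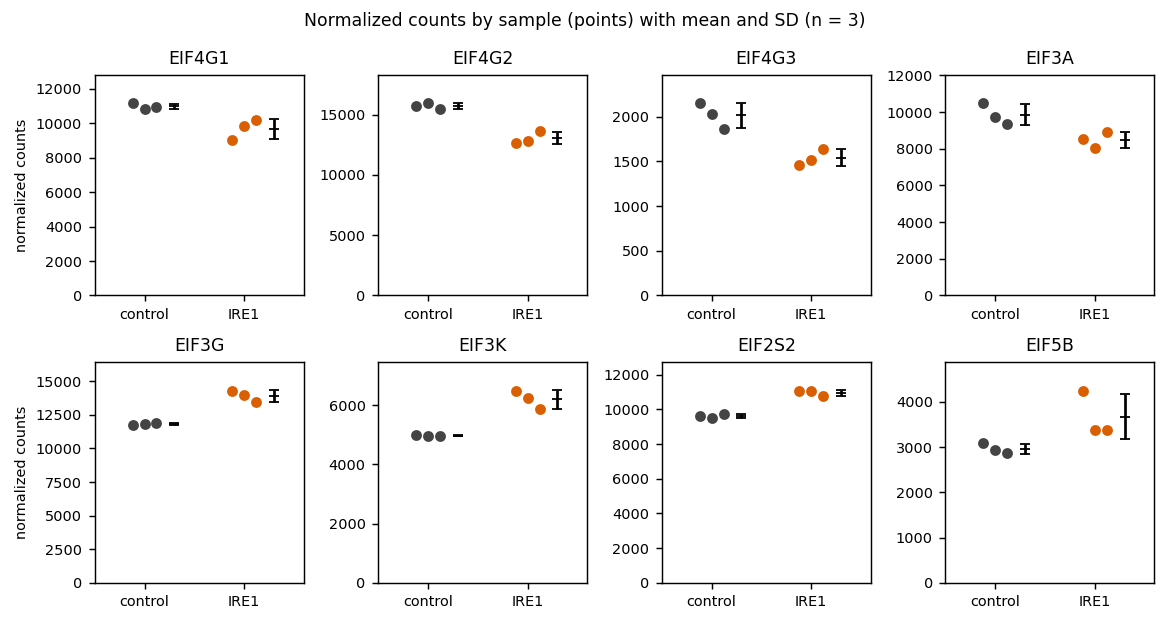
Normalized counts (vertical axes, from 0) of 8 initiation factor genes in each control and IRE1-treated sample, points in the order of replicates 1 to 3, with the mean and SD (n = 3) at the right of each group. The groups do not overlap in any of the 8 panels, the 3 EIF4G genes and EIF3A lie lower after IRE1 and the other 4 genes higher, and EIF5B stands at 4250 in IRE1-treated replicate 1.

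eIF3 is the largest initiation complex, and its subunit genes moved in both directions. EIF3A (ENSG00000107581, chromosome 10, 120793182 to 120840329, minus strand), which encodes its largest, scaffolding subunit, had 10472, 9744 and 9330 normalized counts in the controls and 8517, 8037 and 8914 in the IRE1-treated samples. The groups did not overlap, and IRE1-treated replicate 2 was the lowest sample. The log2 fold change was -0.21 (SE 0.0538, adjusted p = 0.00997, edgeR). It did not pass the threshold without control replicate 1 (adjusted p = 0.0834) or IRE1-treated replicate 2 (0.0716). EIF3A was the only one of the 14 eIF3 genes called lower (7.14%, against 12.4% of all tested genes). A further 8 were called higher (57.1%, against 10.3%).

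EIF3K, a small subunit at the edge of the complex and the eIF3 gene with the shortest annotated mRNA, had 4999, 4971 and 4951 normalized counts in the controls and 6490, 6236 and 5857 after IRE1. Its log2 fold change was 0.32 (SE 0.0485, adjusted p = 0.000442, edgeR). EIF3I, a subunit of the module that also holds EIF3B and EIF3G, had 4843, 4711 and 4920 in the controls and 6483, 5563 and 5311 after IRE1. The log2 fold change of EIF3I was 0.26 (SE 0.0625, adjusted p = 0.0076). In both genes all IRE1-treated samples were above all controls, with replicate 1 highest. The difference between the group means exceeded the range of the replicates in EIF3K but not in EIF3I. EIF3G, an RNA-binding subunit, had 11752, 11799 and 11909 in the controls and 14304, 13987 and 13463 after IRE1, a log2 fold change of 0.24 (SE 0.0443, adjusted p = 0.00176). EIF3M, part of the octameric core, had 4496, 4490 and 4299 in the controls and 5094, 5232 and 5441 after IRE1, a log2 fold change of 0.25 (SE 0.0469, adjusted p = 0.00188). Unlike the genes before it, EIF3M was highest in IRE1-treated replicate 3.

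EIF3E, a core subunit, had 15446, 15100 and 14470 normalized counts in the controls and 17015, 17155 and 17756 after IRE1, with a log2 fold change of 0.21 (SE 0.0453, adjusted p = 0.00456, edgeR). EIF3H, another core subunit, had 10618, 10027 and 10483 in the controls and 12359, 11833 and 11653 after IRE1, with a log2 fold change of 0.20 (SE 0.046, adjusted p = 0.00546). Both sets of samples stood apart, by more than 1000 counts. EIF3F, also of the core and the eIF3 gene with the longest annotated transcript, had 6720, 6631 and 7029 in the controls and 8498, 7668 and 7115 after IRE1, with a log2 fold change of 0.19 (SE 0.0584, adjusted p = 0.0273). EIF3D, the subunit that can itself bind a cap, had 10029, 9853 and 9857 in the controls and 11980, 10837 and 10379 after IRE1, with a log2 fold change of 0.16 (SE 0.0527, adjusted p = 0.0409). In EIF3F and EIF3D the IRE1-treated samples were spread widely, and replicate 3 lay just above the highest control.

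EIF3E, EIF3G, EIF3K and EIF3M passed the threshold with any 1 library left out. EIF3H and EIF3I did not pass without control replicate 2 (adjusted p = 0.0621 and 0.0512, edgeR). EIF3D passed only without IRE1-treated replicate 3 among the single libraries left out, and its adjusted p without the others was 0.0574 (IRE1-treated replicate 1), 0.0854 (IRE1-treated replicate 2), 0.11 (control replicate 1), 0.152 (control replicate 2) and 0.125 (control replicate 3). EIF3F did not pass without IRE1-treated replicate 2 (0.0774) or without control replicate 1 (0.11), 2 (0.131) or 3 (0.0517). With library size only, EIF3D (0.213) and EIF3F (0.119) did not pass. Without IRE1-treated replicate 1, the log2 fold changes of EIF3D, EIF3F and EIF3I were 0.10, 0.12 and 0.17.

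Of the other eIF3 genes, EIF3L (log2 fold change 0.11), EIF3B (0.10) and EIF3J (0.06) did not pass the threshold. EIF3C, a core subunit, had only 171 to 235 normalized counts in the controls and 152 to 215 after IRE1, and EIF3CL, its near-identical copy on the same chromosome, at most 18.3 in any sample. Their log2 fold changes of -0.22 and -0.56 did not pass the threshold. Reads that match both copies equally cannot be assigned to either one, so the levels of EIF3C and EIF3CL are uncertain.

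The summed counts of the 14 eIF3 genes rose from 95768 ± 1233 (SD, n = 3) to 106818 ± 3702 (SD, n = 3), while EIF3A fell, so its share of the sum was 10.8, 10.2 and 9.83% in the controls and 7.67, 7.62 and 8.57% in the IRE1-treated samples. The shares did not overlap, and a two-sided exact permutation test of 3 samples against 3 cannot go below p = 0.1. Without EIF3C and EIF3CL, the level per kilobase of longest transcript in the controls differed 10.4-fold between the highest (EIF3G) and the lowest (EIF3J) eIF3 gene. Per kilobase of canonical transcript EIF3G stood at 10716 normalized counts per kb, EIF3E at 7421, EIF3A at 1479 and EIF3J at 748 in the controls. EIF3A went to 1275 after IRE1, and EIF3G to 12618.

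**Figure D3:**
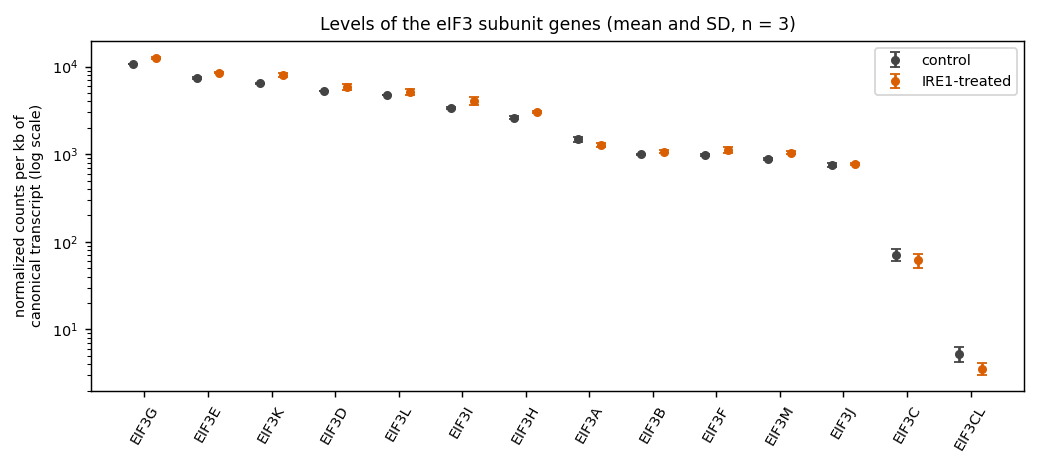
Normalized counts per kilobase of canonical transcript (vertical axis, log scale) of the 14 eIF3 subunit genes in control and IRE1-treated samples, as mean and SD (n = 3), ordered by the control level. EIF3G is highest at 10716 in the controls, EIF3C and EIF3CL lie far below the other 12 genes, and EIF3A is the gene among those 12 whose IRE1-treated mean is below the control mean.

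A recognition sequence of IRE1, CTGCAG in DNA letters, was looked for in canonical transcripts, with sequences from GENCODE (release 44, on GRCh37). It is palindromic, so both strands read alike, and only the transcript strand was searched. It was present in 39 of 48 tested initiation factor genes (81.2%), against 85.3% of 12182 tested protein-coding genes, and at 0.578 sites per kilobase against 0.806. A site with its first guanine unpaired, in a predicted loop 5 to 11 bases wide with 3 or more pairs below it, was present in 14 of the 48 genes (29.2%), against 35.5% of the 12182. EIF3A held 2 such sites and EIF4G1 held 2 among its 5, whereas EIF4G2 (2 sites), EIF4G3 (4 sites) and EIF5B (4 sites) held none in a predicted loop. By outcome, 2 of the 4 genes called lower, 8 of the 20 called higher (EIF1, EIF1B, EIF2S2, EIF2B3, EIF2B4, EIF3D, EIF4EBP1 and EIF5A) and 4 of the 24 others held a site in a predicted loop. The predicted loop was 7 bases wide at the XBP1 site, 8 and 5 at the EIF3A sites, and 5 and 11 at the EIF4G1 sites. Loops of 7 bases were found in EIF3D and EIF4EBP1, both called higher. The hairpin sites of the genes called lower are shown beside the site of XBP1, with CTGCAG in capitals.
XBP1: ctacgtgcacctCTGCAGcaggtgcaggcc
EIF3A coding sequence: atcctccgccttCTGCAGcaggtgtcacag
EIF3A 3′ UTR: tcatggtggcttCTGCAGtttcattgagag
EIF4G1 coding sequence: aaaatcagcctcCTGCAGgcagcaatccag
EIF4G1 3′ UTR: tagccgcctggaCTGCAGgggggcggcagc

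The XBP1 site was taken from its longest protein-coding transcript (1850 bases) and not from the canonical one (1791 bases). It lies at chr22:29192100-29192129 on the minus strand, in the coding part of exon 4 of 5. The first EIF3A site lies in the coding part of exon 9 of 22, with its CTGCAG at chr10:120820261-120820266 on the minus strand, and the stretch shown crosses an exon junction. It shares a run of 13 bases with the XBP1 site, tCTGCAGcaggtg, while no site of another initiation factor gene shared more than 10. Runs were compared only for the 91 sites of the tested initiation factor genes, not for the 40046 of all tested protein-coding genes. How common 13 shared bases are was therefore not tested. The second EIF3A site lies at chr10:120793548-120793577 in exon 22. The EIF4G1 sites lie on the plus strand, at chr3:184040357-184040386 in exon 12 of 33 and at chr3:184052749-184052778 in exon 33. These matches describe the sequence, and cutting at them was not measured in gene counts, which add the reads on both sides of a site.

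eIF2B, the exchange factor that recharges eIF2, had all 5 of its subunit genes at log2 fold changes above 0 (0.14 to 0.32, median 0.20). Of all tested genes, 49.2% lay below 0. The threshold was passed by 3 of the 5, against 10.3% of all tested genes called higher. EIF2B3 and EIF2B4 have canonical transcripts under 2000 bases, where 34.3% of all tested protein-coding genes were called higher. EIF2B1, EIF2B2 and EIF2B5 lie between 2000 and 5000 bases, where the share was 5.59%. EIF2B3, the shortest of the complex by longest annotated transcript (1923 bases), had 709, 664 and 687 normalized counts in the controls and 927, 855 and 799 after IRE1, and encodes the gamma subunit of the catalytic part. Its log2 fold change was 0.32 (SE 0.0681, adjusted p = 0.00352, edgeR). EIF2B4, the delta subunit, had 1554, 1521 and 1477 in the controls and 2035, 1822 and 1672 after IRE1, with a log2 fold change of 0.28 (SE 0.0642, adjusted p = 0.00623). In both genes the samples did not overlap and IRE1-treated replicate 1 was highest. EIF2B1, the alpha subunit, had 1587, 1581 and 1471 in the controls and 1777, 1719 and 1667 after IRE1, with a log2 fold change of 0.15 (SE 0.053, adjusted p = 0.0487).

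EIF2B5, the catalytic subunit, whose longest annotated transcript (4425 bases, not protein-coding) is the longest of the complex, had 1404, 1282 and 1400 normalized counts in the controls and 1495, 1488 and 1531 after IRE1. The samples did not overlap, and the log2 fold change of 0.14 (SE 0.0544) did not pass the threshold (adjusted p = 0.0685, edgeR). EIF2B2, the beta subunit with the longest canonical transcript of the complex (4304 bases), had 959, 1043 and 1099 in the controls and 1353, 1136 and 1083 after IRE1. Its groups overlapped, and the log2 fold change of 0.20 (SE 0.078, adjusted p = 0.0729) did not pass. EIF2B3 and EIF2B4 passed with any 1 library left out. EIF2B1 passed only without IRE1-treated replicate 3 among the single libraries left out, with an adjusted p of 0.0706 (without IRE1-treated replicate 1), 0.12 (IRE1-treated replicate 2), 0.0946 (control replicate 1), 0.112 (control replicate 2) and 0.201 (control replicate 3), and it did not pass by DESeq2 (0.0617), with library size only (0.326) or without a filter (0.105). The summed counts of the 5 genes were 6146 ± 61.9 (SD, n = 3) without the enzyme and 7120 ± 427 (SD, n = 3) after IRE1.

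eIF2 itself had 1 of 4 genes past the threshold, against 10.3% of all tested genes called higher and 12.4% called lower. EIF2S2, the beta subunit with the shortest mRNA of the complex, had 9632, 9488 and 9753 normalized counts in the controls and 11083, 11035 and 10770 after IRE1, with a log2 fold change of 0.19 (SE 0.0434, adjusted p = 0.00617, edgeR). It did not pass without control replicate 2 (adjusted p = 0.0588) or with library size only (0.0535). EIF2S1, the alpha subunit that the stress kinases phosphorylate and the longest mRNA of the complex, had 3036, 2821 and 2902 in the controls and 3205, 3082 and 3181 after IRE1, with a log2 fold change of 0.11 (SE 0.0481) that did not pass the threshold (adjusted p = 0.109). EIF2S3, the GTP-binding gamma subunit, had a log2 fold change of -0.05, and its retrocopy EIF2S3B, with fewer than 30 normalized counts in every sample, one of -0.37, and neither passed. EIF2S2 made up 52.0 ± 0.775% (SD, n = 3) of the summed eIF2 counts in the controls and 55.1 ± 0.964% (SD, n = 3) after IRE1, and EIF2S3 32.2 ± 0.655% and 28.9 ± 0.907%.

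Among the factors of start codon recognition, EIF1, which keeps the scanning ribosome open, had 11379, 10707 and 11313 normalized counts in the controls and 13549, 13120 and 12856 after IRE1. Its log2 fold change was 0.24 (SE 0.046, adjusted p = 0.00185, edgeR), and it passed with any 1 library left out. EIF1B, a close paralog, had 757, 727 and 745 in the controls and 836, 839 and 872 after IRE1, with a log2 fold change of 0.19 (SE 0.0597, adjusted p = 0.0296). The groups of both genes did not overlap. EIF1B did not pass without control replicate 1 (0.0776), 2 (0.133) or 3 (0.077), without IRE1-treated replicate 2 (0.0688), with library size only (0.21) or without a filter (0.0777). EIF1AX (log2 fold change -0.13), the partner of eIF1 on the small subunit, and EIF5 (0.01), which activates the GTPase of eIF2, did not pass. EIF1AD, in the list by its symbol alone, had a log2 fold change of 0.04 and did not pass either.

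EIF5B, the GTPase that joins the ribosomal subunits, had 3092, 2933 and 2865 normalized counts in the controls and 4250, 3380 and 3385 after IRE1. All IRE1-treated samples were above the controls, and replicate 1 stood apart from the other 2. The log2 fold change was 0.31 (SE 0.0734, adjusted p = 0.0075, edgeR), and it was 0.19 (adjusted p = 0.00232) without IRE1-treated replicate 1. Its canonical transcript, 5741 bases long, is longer than that of EIF4G1. EIF6, which keeps the large subunit from joining early, had 3145, 3130 and 3312 in the controls and 3685, 3725 and 3374 after IRE1, with a log2 fold change of 0.17 (SE 0.0515, adjusted p = 0.0269). EIF5A, which helps the ribosome through difficult peptide bonds, had 12943, 12667 and 13541 in the controls and 15121, 14814 and 13931 after IRE1, with a log2 fold change of 0.16 (SE 0.048, adjusted p = 0.0225). In EIF6 and EIF5A the groups did not overlap, by a small margin in IRE1-treated replicate 3.

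EIF6 and EIF5A did not pass with library size only (adjusted p = 0.188 and 0.148, edgeR). They did not pass either without control replicate 1 (0.118 and 0.101), control replicate 2 (0.135 and 0.146) or IRE1-treated replicate 2 (0.122 and 0.091). EIF5A2, a paralog of EIF5A, had a log2 fold change of -0.29 that did not pass. EIF5AL1, an EIF5A-like retrocopy, had 147, 153 and 178 normalized counts in the controls and 395, 157 and 133 after IRE1. The value of IRE1-treated replicate 1 was more than double any other, the groups overlapped, and the log2 fold change of 0.49 (SE 0.282, adjusted p = 0.231) became -0.13 without that library and 0.78 (adjusted p = 0.00736) without IRE1-treated replicate 3.

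Besides the EIF4G genes, 12 tested genes had symbols that begin with EIF4. Of these, 3 were called higher and none lower, against 10.3% and 12.4% of all tested genes. EIF4A1, the main helicase and the shortest mRNA of eIF4F, had 956, 1037 and 1035 normalized counts in the controls and 1181, 988 and 967 after IRE1. The groups overlapped, and the log2 fold change was 0.05 (SE 0.0735, adjusted p = 0.689, edgeR). EIF4A1 shares exons with the read-through gene SENP3-EIF4A1 and has 13 named pseudogenes, so its level is uncertain. EIF4A3, a helicase of the exon junction complex, had 2072, 2058 and 2101 in the controls and 2356, 2398 and 2223 after IRE1, with a log2 fold change of 0.16 (SE 0.0493, adjusted p = 0.0266). EIF4A3 did not pass with library size only (0.22), without a filter (0.0525), without control replicate 1 (0.0999), 2 (0.121) or 3 (0.0682), or without IRE1-treated replicate 2 (0.114). EIF4A2 (0.10) and the helicase cofactors EIF4B (0.01) and EIF4H (0.01) did not pass, and EIF4B had the highest normalized count of the initiation factor genes, at 21452 ± 462 (SD, n = 3) without and 21563 ± 344 (SD, n = 3) with IRE1.

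EIF4E2, a cap-binding protein linked to repression, had 2252, 2078 and 2231 normalized counts in the controls and 2854, 2449 and 2390 after IRE1, with a log2 fold change of 0.23 (SE 0.064, adjusted p = 0.0182, edgeR). It did not pass without control replicate 1 (0.0504) or 2 (0.111) or with library size only (0.0754), and was at 0.15 without IRE1-treated replicate 1. EIF4EBP1, an inhibitor of eIF4E controlled by mTOR, had 4739, 4714 and 4995 in the controls and 5584, 5688 and 5168 after IRE1, with a log2 fold change of 0.19 (SE 0.0502, adjusted p = 0.0147). It did not pass without control replicate 1 (0.0802) or 2 (0.0942), without IRE1-treated replicate 2 (0.0831) or with library size only (0.105). In both genes the groups did not overlap. The cap-binding protein EIF4E itself (log2 fold change 0.06), EIF4E3 (-0.20), the inhibitors EIF4EBP2 (-0.15) and EIF4EBP3 (0.24), and the transporter EIF4ENIF1 (0.03) did not pass. EIF4EBP3 shares exons with the read-through gene ANKHD1-EIF4EBP3.

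The 24 called genes were read against mRNA length, since the change after IRE1 ran with length over all genes. Across the 12225 tested protein-coding genes the Spearman correlation of log2 fold change with the length of the longest annotated transcript was -0.58, and across the 48 initiation factor genes it was -0.32. With the length of the canonical transcript the correlation was -0.65 over 12182 genes and -0.49 over the 48. The points share libraries and are not independent replicates. Within eIF3 (14 genes) the correlation depended on which length was taken, at -0.14 with the longest, -0.44 with the canonical and -0.66 with the median protein-coding transcript.

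Of 14 initiation factor genes with a canonical transcript under 2000 bases, 11 were called higher and none lower, against 34.3% higher and 0.244% lower of all tested protein-coding genes of that length. Of 24 genes between 2000 and 5000 bases, 6 were higher and 1 lower (EIF4G2), against 5.59% and 7.34%. Of 10 genes of 5000 bases or more, 3 were higher and 3 lower, against 1.89% and 37.4%. The 3 long genes called higher were EIF3F (6920 bases), EIF5B (5741 bases) and EIF3M (5047 bases), and the 3 called lower EIF3A (6659 bases), EIF4G3 and EIF4G1. The median log2 fold change in these length classes was 0.21, 0.08 and -0.17 for the initiation factor genes and 0.17, 0.00 and -0.20 for all protein-coding genes. With the longest annotated transcript, 8 of 10 genes under 2000 bases were higher and none lower (35.9% and 0.106% of all such protein-coding genes), 8 of 25 between 2000 and 5000 bases higher and none lower (9.35% and 5.87%), and of 13 genes of 5000 bases or more 4 were higher and 4 lower (2.95% and 32.7%). Which of its annotated transcripts each gene used in these cells was not tested, and for 13 of the 48 genes the longest annotated transcript is not protein-coding (for EIF3E, 7938 bases against a canonical length of 2022).

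**Figure D4:**
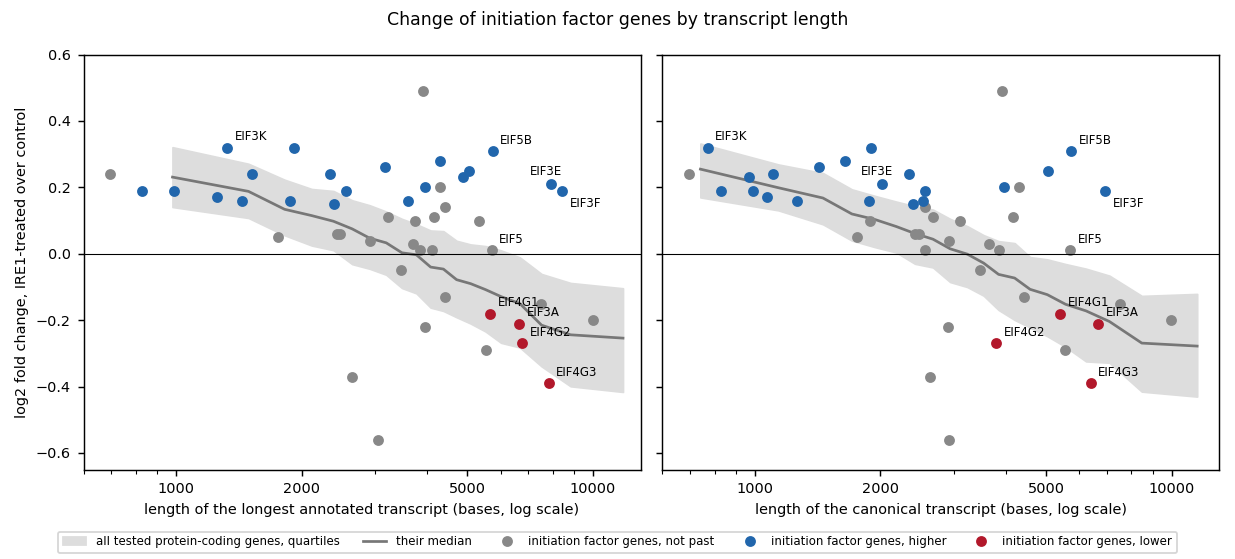
Log2 fold change (IRE1-treated over control, vertical axis) of the 48 initiation factor genes against the length of the longest annotated transcript (left) and the canonical transcript (right), in bases on a log scale, with the median and quartiles of all tested protein-coding genes in 20 bins of length in grey. The grey median falls from above 0 for short to below 0 for long transcripts, the 3 EIF4G genes and EIF3A lie at its long end in the left panel, and EIF5B and EIF3F lie above it at similar lengths.

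When the trend of each library with length (longest transcript) and GC content was removed, 1 of the 4 lower genes and 13 of the 20 higher genes were still called, and 5 genes were newly called higher (EIF2S1, EIF2B2, EIF2B5, EIF4A2 and EIF5), 18 in all. EIF4G3 remained lower, at a log2 fold change of -0.20 (adjusted p = 0.0107, edgeR), while EIF4G2 (-0.10, adjusted p = 0.0684), EIF4G1 (-0.11, 0.127) and EIF3A (-0.06, 0.403) did not pass. With the canonical length, 2 lower genes were still called, EIF4G3 (-0.21, adjusted p = 0.00877) and EIF4G2 (-0.20, 0.000965), while EIF4G1 (-0.08, 0.233) and EIF3A (-0.03, 0.767) did not pass, and 8 of the 20 higher genes were still called, with EIF2S1, EIF2B2 and EIF5 added, 11 in all. EIF5B (0.45 with the longest and 0.49 with the canonical length), EIF3F (0.41 and 0.40) and EIF3M (0.36 and 0.40) moved further above 0 under both. EIF3E was at 0.42 with the longest and 0.13 with the canonical length. EIF3K fell to 0.13 and 0.09, and EIF3G to 0.08 and 0.06. EIF1B, EIF4EBP1, EIF5A and EIF6 crossed to just below 0 under both and were not called.

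**Figure D5:**
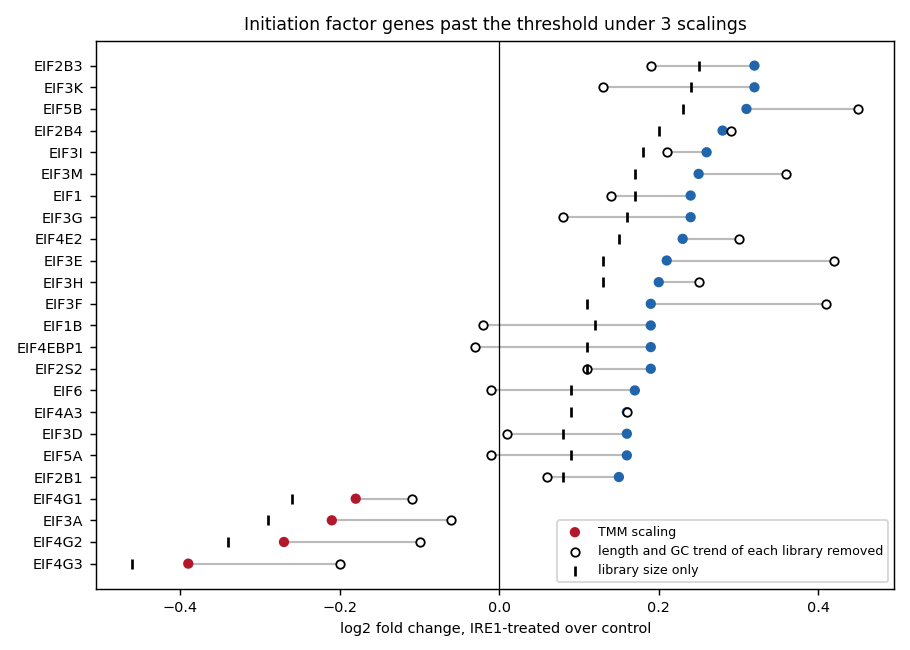
Log2 fold change (IRE1-treated over control, horizontal axis) of the 24 called initiation factor genes with TMM scaling (filled circles), with library size only (ticks) and after removal of the trend with length and GC, using the longest transcript (open circles). The open circles of the 4 lower genes lie nearer 0 than the filled ones, at -0.06 to -0.20, and those of EIF3E, EIF3F and EIF5B lie above 0.40.

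A total of 5 genes passed the threshold in the same direction in each of the 16 alternatives run, which include both trend removals and each library left out: EIF4G3 among the lower genes, and EIF1, EIF3E, EIF3M and EIF5B among the higher ones. The size of the change differed between the IRE1-treated samples. Among the 20 higher genes, replicate 1 was the highest of the 3 IRE1-treated samples in 14, replicate 2 in 3 and replicate 3 in 3, with median log2 ratios to the control mean of 0.26, 0.20 and 0.15. Among the 4 lower genes replicate 1 was the lowest in 3 and replicate 2 in 1, with medians of -0.30, -0.29 and -0.17. The TMM factors of the same samples ran in the same order, 0.947, 0.980 and 0.996, and their part in this result was not tested. Without IRE1-treated replicate 1, 5 initiation factor genes were called lower and 20 higher.

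Beyond the initiation factors, 50 genes of their regulators and of elongation and release were followed, of which 49 were tested. Counts were lower for 10 (20.4%, against 12.4% of all tested genes) and higher for 8 (16.3%, against 10.3%), with a median log2 fold change of 0.03. The 4 lowest were DDX3X, an RNA helicase of scanning (-0.35, adjusted p = 0.00264, edgeR), MTOR, the kinase that controls the eIF4E-binding proteins (-0.28, 0.00191), LARP1, which binds mRNAs of the translation machinery (-0.27, 0.000744), and PPP1R15B, a subunit of the phosphatase of eIF2 alpha (-0.27, 0.00431). The 4 highest were the elongation factor genes EEF1B2 (0.31, 0.00032) and EEF1D (0.30, 0.00147), the ribosomal protein gene RPS6 (0.29, 0.000744) and ATF4, a transcription factor translated under stress (0.23, 0.00281). The length and GC trend was then removed, by longest transcript. MTOR (-0.08, adjusted p = 0.336, edgeR), LARP1 (-0.08, 0.176), EEF1B2 (0.08, 0.121) and ATF4 (0.10, 0.0585) no longer passed. DDX3X (-0.16, 0.0449), PPP1R15B (-0.18, 0.0415), EEF1D (0.29, 0.000751) and RPS6 (0.12, 0.0328) still did. With the canonical length, PPP1R15B (-0.14, 0.119) did not pass either. The shares of regulators called were not matched for length. Of the 9 elongation factor genes 4 were higher and 1 lower. Of the 4 genes of eIF2 alpha kinases 2 were lower, EIF2AK4 (-0.27, adjusted p = 0.00645) and EIF2AK3 (-0.20, 0.0497), which are named here after their values were seen. The groups of EIF2AK3 overlapped. It did not pass with upper quartile scaling (adjusted p = 0.0541, edgeR), with the replicate block (0.0521) or with either trend removed (0.163 and 0.277). Nor did it pass with any single library left out other than IRE1-treated replicate 3 (0.0581 to 0.20).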

How the data were processed

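RNA-seq libraries of H929 RNA incubated with or without IRE1 (3 of each) were compared. Per the labels and the paper's methods, the authors used Cutadapt 1.12 for trimming, STAR 2.5.3a for alignment to GRCh37 with the annotation of Ensembl release 87, and HTSeq 0.6.1p1 for gene counts, whose strand and overlap settings are not given in the sources used here. They deposited raw counts for each library. They also deposited CPM for 12558 genes, used here only in an alternative. The 5 HTSeq summary lines (21.4 to 23.2% of all counts) were left out. The exon-level test of the study was not repeated.

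The 24945 genes with a count were filtered with filterByExpr of edgeR 4.0.16 in R 4.3.3, which left 14398, scaled by TMM and tested by quasi-likelihood, with Benjamini-Hochberg adjustment at 0.05 and no covariate. Standard errors and 95% intervals come from that fit and include counting error. The p-values measure the spread between samples of 1 cell line. The fit and the motif search were tested on simulated data. Alternatives were DESeq2 1.42.0, upper quartile scaling, library size only, no filter, at least 10 counts in every library, limma 3.58.1 on log2 of CPM plus 1, a block for the replicate number, removal from each library of its loess trend (span 0.5) with length and GC, the last 2 together, each library left out, and, added after seeing the data, the trend and the lengths with canonical transcripts. Same-numbered samples did not deviate together (r from -0.112 to -0.005), so the numbers were not taken as pairs.

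GENCODE release 44 on GRCh37 gave names (for 55538 identifiers), positions, lengths and sequences. Transcript sites were folded with ViennaRNA 2.7.2 with 15 bases on either side. Values in every sample are given for genes past the threshold whose mean normalized count was 100 or more, the longest and shortest mRNA of eIF2, eIF2B, eIF3 and eIF4F, and the EIF4G genes. Of the regulators, at most the 4 lowest and 4 highest past the threshold are named. The members and lists were chosen with earlier results of these data known. CYFIP1, of the regulators, was not matched to an identifier.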

Additional observations from a re-analysis of the deposited data

How the results depend on the processing

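DESeq2 (4 lower, 19 higher), upper quartile scaling (4 and 20), no filter (4 and 19), at least 10 counts in every library (4 and 20) and limma on CPM (4 and 20) kept the counts of called initiation factor genes within 1 of 4 lower and 20 higher. With library size only, 10 were higher, the regulators were 16 lower and 4 higher, and the median of the initiation factor genes was 0.05. With the length and GC trend removed, 1958 genes changed in all, 1 initiation factor gene was lower and 18 higher, 3 regulators were lower, the median was 0.04 and the Spearman correlation with length 0.23. EIF1B (-0.02), EIF4EBP1 (-0.03), EIF5A (-0.01) and EIF6 (-0.01) then changed sign. With the canonical length in that trend, these were 1462 genes, 2 lower and 11 higher, 2 regulators lower, 0.05 and 0.16, with EIF1B at -0.00, EIF4EBP1 -0.02, EIF5A -0.00 and EIF6 -0.01. The replicate block left 4 lower and 14 higher and 2613 changed genes. With it, EIF1B (adjusted p = 0.0776, edgeR), EIF2B1 (0.0894), EIF3D (0.0702), EIF4A3 (0.0706), EIF5A (0.0598) and EIF6 (0.0631) no longer passed. The block together with the trend gave 1827 changed genes, 1 lower and 14 higher initiation factor genes, 2 lower regulators, a median of 0.05, a correlation of 0.23 and EIF1B -0.03, EIF4EBP1 -0.03, EIF5A -0.01 and EIF6 -0.01. The correlation with length was -0.49 with the canonical transcript in place of the longest, and the ratio of the highest to the lowest eIF3 level per kilobase was 14.5 with the median protein-coding and 14.3 with the canonical length, against 10.4. Leaving out 1 library gave 1630 to 4312 changed genes, 2 to 5 lower initiation factor genes, 8 to 23 higher ones (8 without control replicate 2 and 23 when IRE1-treated replicate 3 was left out), and 6 to 16 lower and 4 to 12 higher regulators. Causes of these shifts were not tested. EIF3CL and EIF2S3B had fewer than 30 normalized counts in each sample, which limits the precision of their values.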
